A study of Mus musculus with 56 samples.

Results

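The 10 genes described here mark T cells and natural killer cells: Cd3e, Cd3g, Lck, Cd2, Cd4, Cd8a, Cd8b1, Gzma, Gzmb and Nkg7. They were chosen by name, and all 10 were present among the 14870 mouse genes measured in whole tibialis anterior, the shin muscle, by bulk sequencing of its RNA. The mice were wild type (WT) or carried 1 (HET mKO) or 2 (HOMO mKO) copies of an allele called the titin mechanical knock-out. Titin is the elastic protein that spans the sarcomere, and in this allele it carries a recognition site for TEV protease, so that the protease can sever it in the living muscle. Muscles of every genotype received an injection of saline or of adeno-associated virus (AAV) encoding TEV protease fused to green fluorescent protein, and WT muscles given AAV received the same virus. The sources used here give neither the promoter of the viral transgene nor the age of the mice, and do not say if a group's samples were separate animals. The p-values therefore measure the spread between samples, which may be technical. WT muscles numbered 3 with saline and 5 with AAV at 3 days post injection (dpi), 3 and 4 at 7 dpi, and 4 and 4 at 21 dpi. HOMO mKO muscles numbered 4 and 4 at 3 dpi, 4 and 5 at 7 dpi, and 4 and 4 at 21 dpi, and HET mKO muscles 4 and 4 at 7 dpi, which gave 14 groups and 56 samples.

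T cells recognise peptides on other cells through a T cell receptor that signals through the CD3 chains, while the coreceptors CD4 and CD8 bind the class II and class I histocompatibility molecules that present those peptides. The kinase Lck sits on the tails of both coreceptors and starts the signal. Cytotoxic T cells and natural killer cells kill targets with granules that hold perforin and granzymes. Healthy skeletal muscle holds few of these cells, and muscle fibres themselves do not use these genes.

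Depth decided what could be seen of these genes. The 56 libraries held 6901207 to 27180498 reads over the genes of the table. The lowest was HOMO mKO AAV replicate 2 at 7 dpi, and the next lowest library held 14981061 reads. Values are normalised read counts, scaled to an effective library size of 1e+06, in which 1 read was worth 0.032 to 0.122, with a median of 0.0476. The effective size was 0.859 to 1.493 times the reads of a library, so this worth depended on the scaling as well as on depth. At 21 dpi that factor was 1.113 to 1.493 in HOMO mKO with AAV and 0.867 to 0.92 with saline. Each value includes an added 0.5 reads, so a library with 0 reads of a gene is listed at a small positive value. Muscle fibre genes identified the tissue: group means of Acta1, skeletal muscle actin, lay between 16600 and 30900. Reads of the transgene numbered 56 to 34407 in the AAV libraries and 0 to 6 in the saline libraries. Titin itself is cut as a protein, so the cut is not read from the Ttn transcript. In saline muscles Ttn was higher in HOMO mKO than in WT on each day, without overlap. At 21 dpi its values were 13000 to 14900 in HOMO mKO and 10700 to 11300 in WT, and the cause was not tested.

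Outside the AAV groups of 21 dpi most of the 10 genes were at or near 0 reads. Over the 26 saline libraries, which include those of 21 dpi, 98 of the 260 gene values (37.7%) were 0 reads. The median there was 1 read, the highest 20, and 94.2% were under 10 reads. Over the 22 AAV libraries of 3 and 7 dpi 14.5% of values were 0 reads, with a median of 5 and a highest of 67. Over the 8 AAV libraries of 21 dpi no value was 0, the median was 169 reads and the highest 988. Those 8 libraries held 68.1% (Gzma) to 94.4% (Cd8a) of all reads of each gene in the study. Every gene of the deposited table had at least 14 reads in each of its 3 highest libraries, a level that several of the 10 did not reach in any saline library, so how many of them are listed is no support for a rise. In the plot of all libraries the saline points of most genes lie at the value of a few reads.

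**Figure D1:**
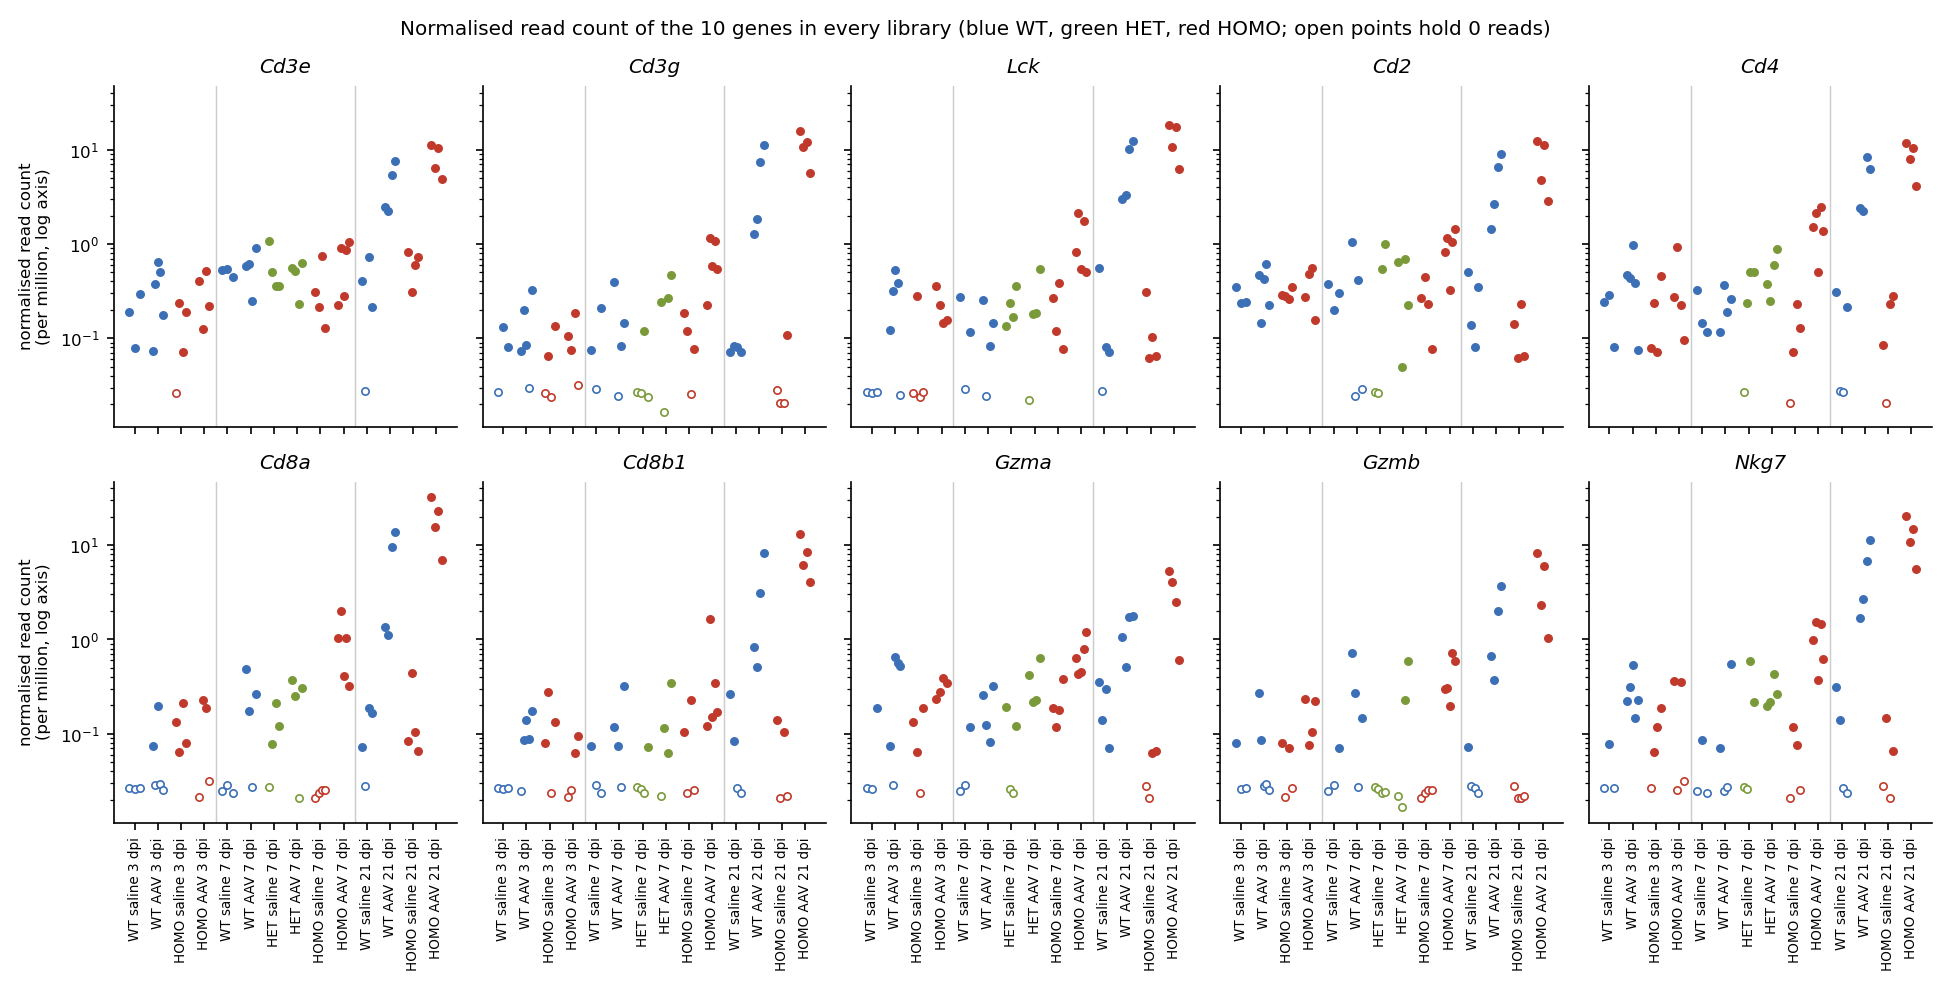
Normalised read count (log axis) of each of the 10 genes in each of the 56 libraries, ordered by day, genotype and treatment; blue is WT, green HET mKO, red HOMO mKO, and open points are libraries with 0 reads, drawn at the value of 0.5 reads. The AAV libraries of 21 dpi hold the highest points of every panel, with Cd8a reaching 32.36 in HOMO mKO replicate 1.

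The promoters of genes that move together are shown for the 4 members whose 250-base window before the start site, from RefSeq on GRCm38.p6, holds no annotated exon. Capitals mark matches, on either strand, to the letters TGTGGT, the core bound by RUNX factors (reverse complement ACCACA), and AGGTGT, part of the site bound by the T-box factors T-bet and Eomes (reverse complement ACACCT). Both families are known regulators of T cell and cytotoxic genes. The sequences read 5′ to 3′ on the minus strand of the chromosome, which is the strand of each gene, and end at the base before the start site.
Cd3g, chr9:44980432-44980681: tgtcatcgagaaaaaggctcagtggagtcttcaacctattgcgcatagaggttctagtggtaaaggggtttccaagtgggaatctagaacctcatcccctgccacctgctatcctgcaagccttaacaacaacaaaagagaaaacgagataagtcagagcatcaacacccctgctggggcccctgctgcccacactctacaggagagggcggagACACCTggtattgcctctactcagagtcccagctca
Lck, first start site, chr4:129573642-129573891: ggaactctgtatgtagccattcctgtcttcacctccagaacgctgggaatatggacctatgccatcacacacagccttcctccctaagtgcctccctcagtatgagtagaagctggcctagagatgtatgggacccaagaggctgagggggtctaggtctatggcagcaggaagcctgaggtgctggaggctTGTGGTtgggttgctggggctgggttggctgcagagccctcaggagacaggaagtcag
Gzma, chr13:113100982-113101231: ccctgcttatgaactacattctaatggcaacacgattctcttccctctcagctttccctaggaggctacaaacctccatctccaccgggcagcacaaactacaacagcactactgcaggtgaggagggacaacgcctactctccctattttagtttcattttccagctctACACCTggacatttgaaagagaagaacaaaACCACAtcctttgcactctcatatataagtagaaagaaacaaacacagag
Gzmb, chr14:56262335-56262584: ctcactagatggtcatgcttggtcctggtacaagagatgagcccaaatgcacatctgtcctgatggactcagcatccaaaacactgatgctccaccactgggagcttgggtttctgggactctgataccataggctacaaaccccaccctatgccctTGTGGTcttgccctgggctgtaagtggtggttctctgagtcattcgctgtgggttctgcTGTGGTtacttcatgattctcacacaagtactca
Promoters of 7 of the 10 genes were found in the RefSeq table (Cd3e, Cd3g, Lck, Cd8a, Gzma, Gzmb and Nkg7); Cd2, Cd4 and Cd8b1 are named only. The RUNX letters stood in 4 of the 7 (Lck, Gzma, Gzmb with 2 matches, and Nkg7) and in 14.2% of 27025 promoters of the same length. The T-box letters stood in 4 of the 7 (Cd3e, Cd3g, Gzma and Nkg7) and in 12% of all. The ETS letters CGGAAG stood in 0 of the 7 and in 13.8% of all, the STAT letters TTCNNNGAA in 1 (Nkg7) and in 7.18%, and the TATA letters TATAAA in 0 and in 13%, with all 5 motifs searched on both strands. In Gzmb the RUNX matches began 93 and 34 bases before the start site. In Gzma the RUNX match began 50 bases and the T-box match 80 bases before it, and the matches did not overlap. These matches describe letters and do not show that a factor binds.

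Members of the same complex lie close together. On GRCm38 (GENCODE M21), Cd8a lies at chr6:71373427-71379173 and Cd8b1 at chr6:71322788-71337494, both on the plus strand and 35932 bases apart. Cd3e (chr9:44998740-45009627) and Cd3g (chr9:44969572-44980431) lie on the minus strand, 18308 bases apart. Lck is at chr4:129548344-129573641, Cd2 at chr3:101275899-101287939, Cd4 at chr6:124864692-124888221, Gzma at chr13:113093825-113100981, Gzmb at chr14:56258838-56262260 and Nkg7 at chr7:43437073-43438249. Cd3e overlaps the annotated genes Gm48719 and Gm48720, and Lck overlaps Mir8119. The sources used here do not give the strand setting of the counting, so reads from these overlaps cannot be told apart.

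At 3 dpi none of the 10 genes was called in either genotype. A gene was called when the Benjamini-Hochberg adjusted p of the limma test of log2(value + 1) was under 0.05, over all genes tested. With AAV against saline 0 of 10 genes were called in WT, where 0% of all genes were called higher, and 0 of 10 in HOMO mKO, where 16.4% of all genes were. At an unadjusted p under 0.05 the counts were also 0 and 0, and edgeR, DESeq2 and limma voom called 0 in both. The log2 changes lay between 0.05 (Gzmb) and 0.31 (Gzma) in WT and between -0.10 (Cd8b1) and 0.25 (Gzma) in HOMO mKO, with standard errors (SE) of 0.213 to 0.344. Over the 9 AAV libraries of 3 dpi Cd4 had 1 to 18 reads, Cd3e 1 to 12 and Cd2, an adhesion receptor of T and natural killer cells, 2 to 13. Cd8a had 0 to 4 reads and was at 0 in 5 of the 9. The AAV libraries of 3 dpi lay above all saline libraries for 1 gene in WT (Nkg7), against 2.03% of all genes, and for 1 in HOMO mKO (Gzma), against 13.9%. The difference between the genotypes' responses was called for 0 of 10 genes, against 4.98% of all genes called higher. At these depths changes of this size in genes of a few reads were not detectable.

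At 7 dpi the limma test called none of the 10 genes in WT or HET mKO muscles, while some other fits called genes in HET mKO. In WT 0 of 10 genes were called, as were 0% of all genes higher, with log2 changes from -0.01 (Lck) to 0.28 (Gzmb) and 0 genes at an unadjusted p under 0.05 or by edgeR, DESeq2 or voom. The WT groups overlapped for all 10, where 2.01% of all genes had every AAV library above every saline library. In HET mKO 0 of 10 were called by limma, while 18.1% of all genes were called higher, and the changes ran from -0.07 (Cd3e) to 0.33 (Gzma, adjusted p = 0.241). No gene reached an unadjusted p under 0.05 there and voom called 0, but edgeR called 2 (Gzma and Gzmb) and DESeq2 called 3 (Cd3g, Gzma and Gzmb). With the replicate number as a block limma called 1 (Gzma), and with no pseudocount 1 (Gzma).

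Gzma encodes granzyme A, a serine protease of killer granules. Its values in HET mKO were 0.42, 0.22, 0.23 and 0.63 with AAV (9, 6, 5 and 15 reads) and 0.19, 0.026, 0.024 and 0.12 with saline (3, 0, 0 and 2 reads). The AAV libraries were all above the saline libraries for Gzma, which was the case for 1 of the 10 genes, against 19.6% of all genes. Gzmb, granzyme B, was at 0 reads in all 4 HET mKO saline libraries, and it had 0, 0, 5 and 14 reads with AAV. Replicates 1 and 2 with AAV were thus as empty as the saline libraries. HET minus WT, the response differed for 0 of 10 genes at 7 dpi, against 9.23% of all genes called higher.

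In HOMO mKO muscles 5 of the 10 genes rose at 7 dpi, namely Cd4, Nkg7, Cd8a, Lck and Cd3g, and 19.9% of all genes were called higher. Cd4, the coreceptor of helper T cells, had values of 1.51, 2.13, 0.5, 2.46 and 1.38 with AAV and 0.021, 0.071, 0.23 and 0.13 with saline. Every AAV library was above every saline library, with replicate 3 the lowest of the AAV libraries. Cd4 rose by 1.17 ± 0.23 (SE, adjusted p = 8.78e-05), the group rate being 18.4-fold higher (95% counting interval 8.74 to 46.4, from 174 and 7 reads). Macrophages and other myeloid cells can also express Cd4.

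Cd8a, which encodes the alpha chain of the coreceptor of cytotoxic T cells, was at 0 reads in all 4 HOMO mKO saline libraries of 7 dpi, which allows a rate of up to 0.0356 over the group. With AAV it had 29, 16, 9, 28 and 8 reads, or values of 1.03, 2.01, 0.41, 1.04 and 0.32, so the groups did not overlap. It rose by 0.87 ± 0.32 (adjusted p = 0.0243), at least 22.2-fold against 3 reads over the saline group. Replicate 2, the highest, was also the shallowest library of the study, and without it the adjusted p was 0.0897.

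Nkg7, a granule membrane protein of natural killer and cytotoxic T cells, had values of 0.99, 1.52, 0.37, 1.47 and 0.62 with AAV and 0.021, 0.12, 0.077 and 0.025 with saline. It rose by 0.87 ± 0.25 (adjusted p = 0.00436). Lck had values of 0.82, 2.13, 0.54, 1.73 and 0.51 against 0.27, 0.12, 0.38 and 0.076, and rose by 0.76 ± 0.24 (adjusted p = 0.00958). Both genes were higher in every AAV library than in any saline library. Cd3g, the gamma chain of CD3, rose by 0.61 ± 0.25 (adjusted p = 0.0446), from 4, 2, 0 and 1 reads to 6, 9, 13, 29 and 14. This call was the least stable: it was lost in 8 of 9 fits that left out 1 library, with adjusted p from 0.023 to 0.114, and with a pseudocount of 4, quantile normalisation or voom.

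The other 5 genes did not pass at 7 dpi in HOMO mKO. Gzma stood at 0.47 ± 0.20 (adjusted p = 0.0596), Cd2 at 0.62 ± 0.28 (0.0693), Gzmb at 0.46 ± 0.24 (0.132), Cd3e at 0.29 ± 0.21 (0.28) and Cd8b1 at 0.36 ± 0.26 (0.288), all limma values with adjusted p. Gzmb was at 0 reads in all 4 saline libraries and had 8, 2, 4, 19 and 15 reads with AAV, at least 11.8-fold. The groups did not overlap for 7 of the 10 genes, those called and the 2 granzymes, against 16.2% of all genes. The count of 5 called depended on the scale: it was 8 with a pseudocount of 0.25, 8 by edgeR, 9 by DESeq2, 7 with no pseudocount and 8 in a fit of only these groups, but 1 with a pseudocount of 4, 1 by voom and 3 after quantile normalisation. Cd4 was called in all of these.

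**Figure D2:**
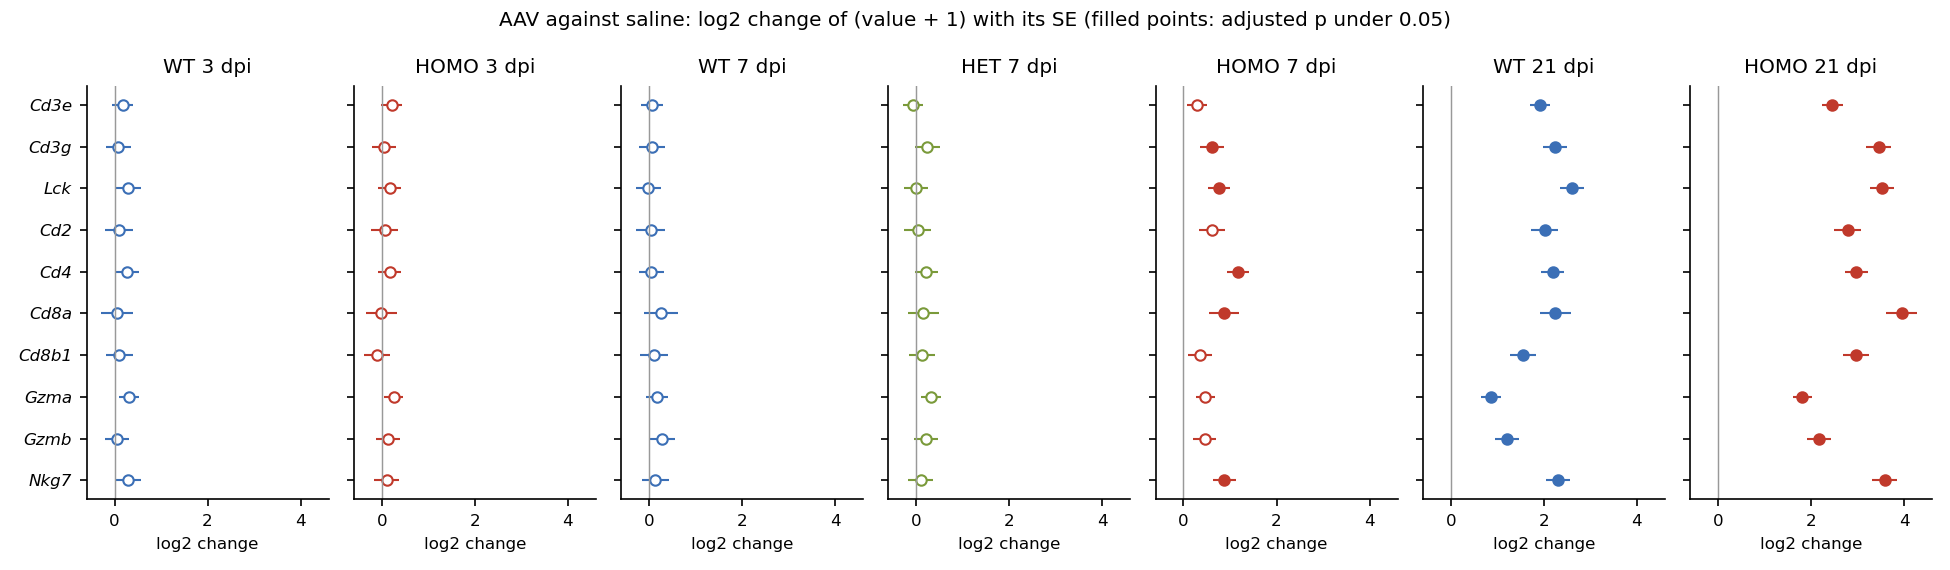
Log2 change of (value + 1) with its SE for AAV against saline, 1 panel per genotype and day; filled points have an adjusted p under 0.05 (limma, all genes). The points lie near 0 at 3 dpi and in WT and HET mKO at 7 dpi, 5 of 10 are filled in HOMO mKO at 7 dpi, and all 10 are filled in both genotypes at 21 dpi.

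The test of the difference between genotypes at 7 dpi called 1 of the 10 genes higher in HOMO mKO than in WT, Cd4 (1.12 ± 0.35, adjusted p = 0.023), against 8.39% of all genes. In WT, Cd4 had values of 0.12, 0.37, 0.19 and 0.26 with AAV and 0.32, 0.14 and 0.12 with saline, so the WT groups overlapped. The Cd4 call was lost with a pseudocount of 4, by voom, without WT saline replicate 1 and without HOMO mKO AAV replicate 4 (largest adjusted p 0.202). For the other 9 genes the difference lay between 0.17 (Gzmb) and 0.78 (Lck), with adjusted p from 0.132 to 0.792.

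Other leukocyte genes moved at 7 dpi beside these. In HOMO mKO all 5 pan-leukocyte genes rose, with a median log2 change of 2.01, among them Ptprc, which encodes CD45 (2.18 ± 0.37, adjusted p = 7.65e-06), and all 12 macrophage markers rose, with a median of 2.08. The summed level of the macrophage markers was 293 to 475 in the HOMO mKO AAV libraries and 70.4 to 110 with saline, and that of the 10 genes was 3.83 to 13.4 and 0.965 to 2.15. In HET mKO 5 of 5 pan-leukocyte genes and 11 of 12 macrophage markers rose (medians 1.31 and 1.72), with a summed level of the 10 genes of 1.83 to 4.88 with AAV and 1.21 to 2.80 with saline. The median over all genes was 0.01 in both genotypes. The part of these other cells in the values of the 10 genes was not tested. In bulk tissue fewer or more cells of a type and less or more RNA per cell cannot be told apart.

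The lists of related genes at 7 dpi are read against the 19.9% of all genes called higher in HOMO mKO and the 18.1% in HET mKO, and the difference between lists was not tested. In HOMO mKO 10 of 11 natural killer receptors rose (median 0.59), including Klrk1, which encodes the activating receptor NKG2D (1.63 ± 0.30), the interleukin-2 receptor chain Il2rb (1.61 ± 0.30) and the natural cytotoxicity receptor Ncr1 (0.63 ± 0.13). Of 22 other genes of the T cell receptor and its signalling 6 rose (median 0.43), among them the adaptor Lcp2 (1.44 ± 0.27) and the receptor constant region Trbc2 (0.78 ± 0.24). Of 13 other cytotoxic genes 3 rose, the chemokine Ccl5 (1.68 ± 0.33), Ctsw (0.73 ± 0.25) and the transcription factor Eomes (0.31 ± 0.12). None of 6 regulatory T cell genes and none of 6 checkpoint genes passed, Foxp3 standing at 0.12 ± 0.13 and Havcr2 at 0.50 ± 0.24. In HET mKO 0 of 11 natural killer receptors passed, and of the T cell receptor genes 2 of 22, the kinase Zap70 (1.02 ± 0.24) and the costimulator Cd28 (0.65 ± 0.26).

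At 21 dpi all 10 genes rose with AAV in both genotypes. In WT 10 of 10 were called, against 20.9% of all genes called higher, and in HOMO mKO 10 of 10, against 30.8%. The AAV and saline groups did not overlap for any of the 10 genes in either genotype, which was the case for 17.4% of all genes in WT and 22.3% in HOMO mKO. All 10 were called under each alternative in which they were tested and in each fit without 1 library. With a mean of at least 1 only 7 were tested. These pass that filter through the AAV libraries of 21 dpi, so that fit is no added support. The median log2 change of the 10 was 2.11 in WT and 2.97 in HOMO mKO, beside medians over all genes of 0.01 and 0.03.

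The coreceptor genes of cytotoxic T cells spread widely between libraries. Cd8a had values of 1.35, 1.12, 9.53 and 13.75 in the WT AAV libraries and 0.072, 0.028, 0.19 and 0.16 with saline. In HOMO mKO it had 32.36, 15.41, 22.8 and 6.92 with AAV and 0.085, 0.44, 0.1 and 0.065 with saline. The lowest AAV library of each genotype was above its highest saline library, while WT AAV replicates 1 and 2 were far below replicates 3 and 4. Cd8a rose by 2.25 ± 0.33 in WT (adjusted p = 6.95e-07) and by 3.95 ± 0.33 in HOMO mKO (adjusted p = 1.94e-13), or 75.7-fold (95% counting interval 36.6 to 189) and 124-fold (73.5 to 226) as group rates.

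Cd8b1, the beta chain that pairs with Cd8a, had values of 0.83, 0.51, 3.13 and 8.19 in WT AAV libraries and 13.01, 6.09, 8.51 and 4.12 in HOMO mKO. It rose by 1.55 ± 0.28 in WT and 2.96 ± 0.28 in HOMO mKO (adjusted p = 1.9e-05 and 2.94e-12). Cd4 had values of 2.39, 2.23, 8.28 and 6.25 in WT and 11.77, 7.89, 10.4 and 4.08 in HOMO mKO. It rose by 2.19 ± 0.25 and 2.97 ± 0.25 (adjusted p = 2.12e-09 and 1.33e-13). In both genes WT replicates 1 and 2 were below replicates 3 and 4, and HOMO mKO replicate 4 was below WT replicate 4.

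Among the receptor chains and the kinase, Cd3g had values of 1.27, 1.83, 7.41 and 11.2 in WT AAV libraries and 15.73, 10.75, 12.13 and 5.6 in HOMO mKO. With saline it had 1 read in each WT library and 0, 0, 0 and 2 reads in HOMO mKO. It rose by 2.23 ± 0.26 and 3.45 ± 0.26 (adjusted p = 5.54e-09 and 1.29e-14). Lck had values of 3, 3.29, 10.09 and 12.33 in WT and 18.02, 10.61, 17.26 and 6.26 in HOMO mKO, and rose by 2.61 ± 0.25 and 3.53 ± 0.25 (adjusted p = 9.92e-11 and 4.45e-15). HOMO mKO replicate 1 was the highest and replicate 4 the lowest of its group for both genes.

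Cd3e, the epsilon chain of CD3, differed from Cd3g in its level without AAV. Over the 26 saline libraries Cd3e had a median of 7 reads and was at 0 in 2, whereas Cd3g had a median of 1 and was at 0 in 11. With AAV at 21 dpi Cd3e had values of 2.48, 2.23, 5.34 and 7.63 in WT and 11.15, 6.37, 10.37 and 4.88 in HOMO mKO, and rose by 1.92 ± 0.22 and 2.46 ± 0.22. Its group rate was 14.3-fold higher in WT (9.56 to 22.3) and 14.3-fold in HOMO mKO (10.8 to 19.4), while Cd3g was 111-fold (43.2 to 410, from 4 saline reads) and 491-fold (136 to 4060, from 2 saline reads). Whether the 2 genes that overlap Cd3e supplied saline reads was not tested. Cd2 had values of 1.43, 2.62, 6.59 and 9.08 in WT and 12.26, 4.82, 11.14 and 2.83 in HOMO mKO, and rose by 2.02 ± 0.29 and 2.79 ± 0.29.

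The granule genes rose too. Nkg7 had values of 1.67, 2.67, 6.72 and 11.24 in WT AAV libraries and 20.38, 10.79, 14.73 and 5.6 in HOMO mKO, and rose by 2.30 ± 0.26 and 3.58 ± 0.26 (adjusted p = 3.05e-09 and 7.45e-15). Gzmb had values of 0.66, 0.37, 2.01 and 3.7 in WT and 8.23, 2.31, 6.04 and 1.04 in HOMO mKO. It rose by 1.20 ± 0.26 and 2.16 ± 0.26, and since all 4 HOMO mKO saline libraries were at 0 reads it was at least 132-fold higher there. Gzma had values of 1.07, 0.51, 1.75 and 1.79 in WT and 5.35, 4.11, 2.48 and 0.61 in HOMO mKO. On the log2(value + 1) scale it showed the smallest of the 10 changes in both genotypes, 0.87 ± 0.21 and 1.82 ± 0.21. Its group rate was higher by 6.74-fold (3.94 to 12.4) and 138-fold (37.9 to 1140, from 2 saline reads). The log2(value + 1) scale understates the change of such low genes, and counting intervals cover counting error only.

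The difference between the genotypes' responses at 21 dpi was called for 4 of the 10 genes, against 1.98% of all genes called higher, and this count depended on the processing. Higher in HOMO mKO were Cd8a by 1.70 ± 0.47 (adjusted p = 0.0235), Cd8b1 by 1.42 ± 0.39 (0.0237), Nkg7 by 1.28 ± 0.37 (0.0322) and Cd3g by 1.22 ± 0.37 (0.041), all by limma. The other 6 stood between 0.54 ± 0.31 (Cd3e, adjusted p = 0.345) and 0.96 ± 0.36 (Gzmb, 0.114), with Gzma at 0.95 ± 0.30 (0.0525). The 21 dpi AAV libraries of WT and HOMO mKO overlapped for 10 of 10 genes. No gene was called by edgeR, DESeq2 or voom, with a pseudocount of 0.25, with no pseudocount, with the replicate block or in a fit of only these groups, and 5 were called with a pseudocount of 4 or quantile normalisation. Over these alternatives the adjusted p of the 4 genes ran from 0.011 to 0.817 for Cd8a, 0.0113 to 0.611 for Cd8b1, 0.0164 to 0.708 for Nkg7 and 0.0194 to 0.6 for Cd3g.

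Single libraries decided this count. No gene was called without WT AAV replicate 1 or 2 or without HOMO mKO AAV replicate 1 or 3, while 9 were called without HOMO mKO AAV replicate 4 and 7 without WT AAV replicate 3 or 4. It was 3 without WT saline replicate 3 or 4, HOMO mKO saline replicate 2 or HOMO mKO AAV replicate 2. It was 1 without WT saline replicate 1, and 2 without WT saline replicate 2 or HOMO mKO saline replicate 1, 3 or 4. These libraries were the ends of the spread: in WT AAV replicates 1 to 4 the sum of the 10 genes was 16.1, 17.4, 60.9 and 85.1, and in HOMO mKO 148, 79.2, 116 and 41.9. HOMO mKO replicate 1 was highest and replicate 4 lowest for 10 of 10 genes, and WT replicate 4 was highest for 9 of 10.

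**Figure D3:**
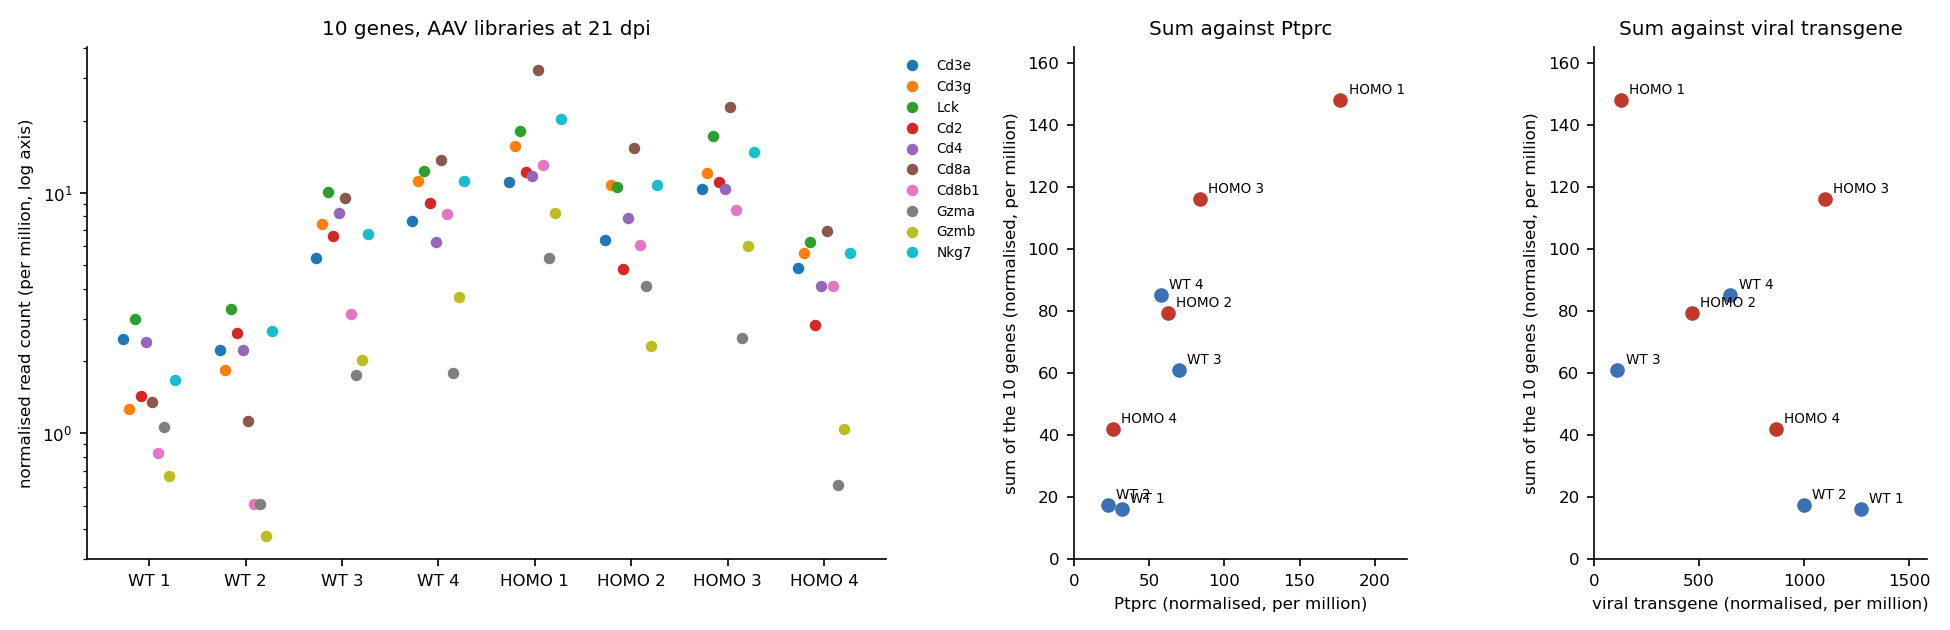
AAV libraries of 21 dpi, 4 per genotype. The left panel gives the normalised read count of the 10 genes in each library (log axis), and the middle and right panels set the sum of the 10 genes against Ptprc and against the viral transgene (linear axes; blue WT, red HOMO mKO); the sum runs from 16.1 in WT replicate 1 to 148 in HOMO mKO replicate 1.

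The general leukocyte level ranked the HOMO mKO libraries as the sum of the 10 genes did, but not the WT libraries. Ptprc stood at 31.8, 22.6, 69.8 and 57.7 in WT AAV replicates 1 to 4 and at 177, 62.6, 83.7 and 26.1 in HOMO mKO. In HOMO mKO it was highest in replicate 1 and lowest in replicate 4, as were the 10 genes. In WT it was highest in replicate 3 and lowest in replicate 2, while the sum was highest in replicate 4 and lowest in replicate 1. The transgene stood at 1270, 999, 111 and 648 in WT and at 127, 465, 1100 and 866 in HOMO mKO. The summed macrophage markers ranged from 298 to 912 in WT and from 283 to 2410 in HOMO mKO, and the summed muscle fibre genes from 76800 to 119000 and from 59900 to 116000. Their part in the genotype difference was not tested.

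Ratios of reads within a library, which leave out the overall level, were compared between HOMO mKO and WT AAV at 21 dpi for 4 pairs. The test was an exact two-sided permutation test of log2 ratios, for which 4 against 4 libraries can reach 0.0286 before adjustment. A single ratio at that value could not pass after adjustment over the 4 pairs. The ratio of Cd8a to Cd4 was 2.75, 1.95, 2.19 and 1.70 in HOMO mKO and 0.563, 0.505, 1.15 and 2.20 in WT. WT replicates 1 and 2 lay below all HOMO mKO libraries, but WT replicate 4 lay among them, and the difference of 1.20 (log2) did not pass (exact p = 0.114, adjusted over the 4 pairs 0.4). The ratio of Nkg7 to Cd3e was 1.15 to 1.83 in HOMO mKO and 0.675 to 1.47 in WT (exact p = 0.2, adjusted 0.4). Cd8b1 to Cd8a was 0.373 to 0.594 and 0.329 to 0.612 (exact p = 0.571, adjusted 0.571). Cd3e to Ptprc was 0.0628 to 0.187 and 0.0765 to 0.132 (exact p = 0.543, adjusted 0.571). No ratio differed beyond the spread between libraries, which does not show that they were alike.

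Most of the 10 genes responded more at 21 dpi than at 7 dpi on the log2(value + 1) scale. In WT the response differed between the days for 8 of 10 genes, against 10.8% of all genes called higher, led by Lck (2.62 ± 0.37), Cd3g (2.17 ± 0.38), Nkg7 (2.16 ± 0.39) and Cd4 (2.15 ± 0.36), while Gzma (0.69 ± 0.31, adjusted p = 0.113) and Gzmb (0.92 ± 0.38, adjusted p = 0.0808) did not pass. In HOMO mKO it differed for 10 of 10, against 8.53%, from Gzma (1.35 ± 0.29) to Cd8a (3.07 ± 0.46). With the replicate block 8 of the 10 were called in HOMO mKO, without Gzma and Gzmb. The counts were lower in some other fits: 5 in WT and 6 in HOMO mKO by edgeR and by DESeq2, 6 and 5 with no pseudocount, and 1 and 0 by voom. By edgeR the Cd8a difference in HOMO mKO was -0.32. All 4 HOMO mKO saline libraries of 7 dpi held 0 reads of Cd8a, and the cause of the changed sign was not tested.

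No difference between genotypes was detected in saline-injected muscles. HOMO mKO against WT, 0 of 10 genes were called at 3, 7 and 21 dpi, against 1.53%, 1.51% and 2.45% of all genes called higher, and HET mKO against WT 0 of 10 at 7 dpi, against 0.074%. At an unadjusted p under 0.05 and by edgeR, DESeq2 and voom the counts were 0 in each. The log2 differences lay between -0.21 (Gzma) and 0.28 (Cd3e), both at 21 dpi. With medians of 0 to 7 reads per gene over the saline libraries, smaller differences were not detectable at this depth.

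The wider T cell and killer cell programme rose with the 10 genes at 21 dpi. The lists are read against the 20.9% of all genes called higher in WT and the 30.8% in HOMO mKO. The difference between lists was not tested. All 22 other T cell receptor and signalling genes were called higher in WT (median 1.45) and in HOMO mKO (median 2.32), with Trbc2 at 2.08 ± 0.25 and 3.35 ± 0.25 and the adaptor Lat at 1.81 ± 0.21 and 2.67 ± 0.21. All 11 natural killer receptors rose in both (medians 1.01 and 1.34), with Il2rb at 3.19 ± 0.32 and 4.56 ± 0.32, and Klrk1 at 2.43 ± 0.32 and 3.34 ± 0.32. Of 13 other cytotoxic genes 12 rose in both, with Ccl5 at 3.32 ± 0.35 and 4.72 ± 0.35 and Eomes at 1.07 ± 0.13 and 2.00 ± 0.13. The exception was Gzmm, granzyme M, named after its values were seen, which by limma fell by 0.60 on the log2 scale in WT (adjusted p = 0.0031) and by 0.47 in HOMO mKO (adjusted p = 0.0116). Its mean value went from 2.69 ± 0.268 to 1.66 ± 0.21 (SD, n = 4) in HOMO mKO.

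Regulatory and restraining genes of T cells were part of the rise. Of 6 regulatory T cell genes 4 rose in WT and 5 in HOMO mKO, against 20.9% and 30.8% of all genes called higher. The lineage factor Foxp3 stood at 0.87 ± 0.14 and 1.41 ± 0.14 and the inhibitory receptor Ctla4 at 1.19 ± 0.23 and 2.00 ± 0.23. All 6 checkpoint genes rose in both, with Tigit at 1.03 ± 0.17 and 1.91 ± 0.17 and Havcr2 at 1.74 ± 0.25 and 2.47 ± 0.25, and Pdcd1, which encodes PD-1, at 2.51 ± 0.24 in HOMO mKO. The genotype difference was called for 4 of the 6 checkpoint genes, among them Pdcd1 (1.48 ± 0.35, adjusted p = 0.00579) and Tox (1.15 ± 0.33, adjusted p = 0.0279). It was called for 3 of the 22 T cell receptor genes, for 3 of the 13 cytotoxic genes, led by Eomes (0.93 ± 0.18, adjusted p = 0.00129), and for 0 of 12 macrophage markers. Of all genes 1.98% were called higher for this difference. Over the whole table, 2 genes were called higher for this difference with the replicate block and 22 in a fit of only these groups, against 295, so at most 2 of these list calls remain with the block. These lists were measured in the same libraries as the 10 genes.

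Genes that recruit and engage T cells rose beside them. A list of 12 genes held chemokines and chemokine receptors, and also the cytokine Il15 and the cytokine receptor chains Il2rg and Il7r. Of these 12 genes 9 rose in WT and 11 in HOMO mKO at 21 dpi, and 1 fell in each. Beside this and the presentation lists below, 20.9% and 30.8% of all genes were called higher. The receptor Cxcr3 rose by 2.00 ± 0.19 and 2.60 ± 0.19 and its ligand Cxcl10 by 3.34 ± 0.37 and 4.88 ± 0.37. Class I presentation, the ligand side of CD8, rose in 10 of 11 genes in WT and 11 of 11 in HOMO mKO, with the immunoproteasome subunit Psmb10 at 2.23 ± 0.22 and 2.79 ± 0.22. Class II presentation, the ligand side of CD4, rose in 9 of 9 in both, with H2-Eb1 at 3.62 ± 0.33 and 4.69 ± 0.33. Histocompatibility genes share sequence, and RSEM divides reads that match several genes, so single values of that family are uncertain.

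**Figure D4:**
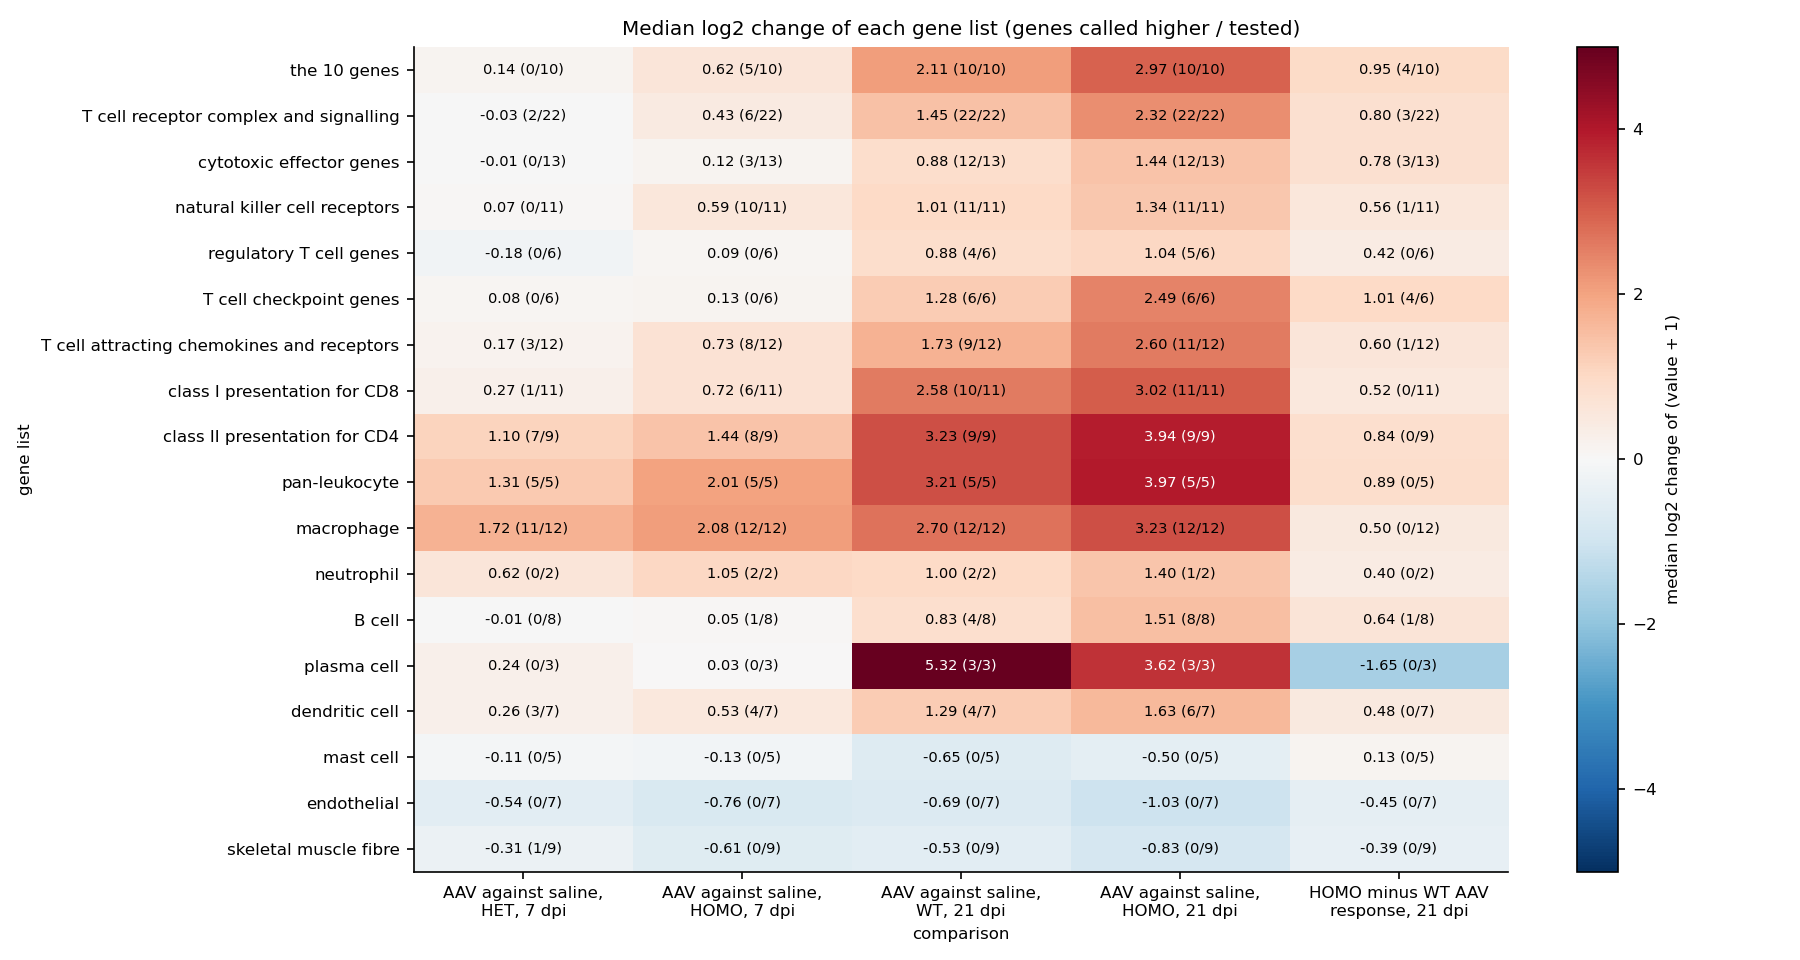
Median log2 change of (value + 1) for the 10 genes and for lists of related genes and of markers of other cell types in 5 comparisons; each cell gives the median, with the number of genes called higher over the number tested in parentheses, and red is higher. The 10 genes go from 0.14 in HET mKO at 7 dpi to 2.97 in HOMO mKO at 21 dpi.

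Markers of other immune cells moved at 21 dpi too, where 20.9% of all genes were called higher in WT and 30.8% in HOMO mKO. The 5 pan-leukocyte genes and the 12 macrophage markers all rose in both genotypes (medians 3.21 and 2.70 in WT, 3.97 and 3.23 in HOMO mKO). B cell markers rose in 4 of 8 in WT and 8 of 8 in HOMO mKO, and the 3 plasma cell markers rose in both (medians 5.32 and 3.62), Jchain being lower in HOMO mKO than in WT in the test of the difference (-1.70 ± 0.50, adjusted p = 0.0346). The summed plasma cell markers were 85.2 to 723 in WT AAV libraries and 0.511 to 3.98 with saline. Muscle fibre genes fell in 6 of 9 in WT and 8 of 9 in HOMO mKO, and endothelial genes in 6 of 7 in both. The share of all genes called lower is not given here, so whether these counts exceed it cannot be judged. The part of these shifts in the values of the 10 genes was not tested.

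Across the 14 group means the 10 genes followed 1 pattern, each correlating with the mean of the other 9 at r between 0.97 (Gzma) and 0.999 (Nkg7). Among 12928 genes with a mean of at least 1, the 10 most like them by the same measure were Trbc2 (r = 0.999), Serpina3g (0.996), Ltb (0.995), Gbp8 (0.995), Trac (0.993), Gm12250 (0.992), H2-T23 (0.991), Il2rb (0.99), Sept1 (0.99) and Ccl5 (0.99). Trac and Trbc2 encode constant regions of the T cell receptor chains, and Ltb a lymphotoxin subunit. Trbc2 had group means of 0.0654 in HOMO mKO saline, 10.7 in HOMO mKO AAV and 4.38 in WT AAV at 21 dpi, and Trac 0.0791, 9.34 and 5.08. H2-T23, a class I-like gene, differed in its base level, with 9.72, 120 and 61.9. These correlations describe 14 points from shared libraries, 2 of which, the AAV groups of 21 dpi, are far above the rest. A gene near 0 in the other groups passes a mean of at least 1 only through those 2 groups. The filter thus favours this pattern, and the likeness of such genes is no support for it. Trbc2, Gbp8 and H2-T23 have near-identical relatives, so their values are uncertain.

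**Figure D5:**
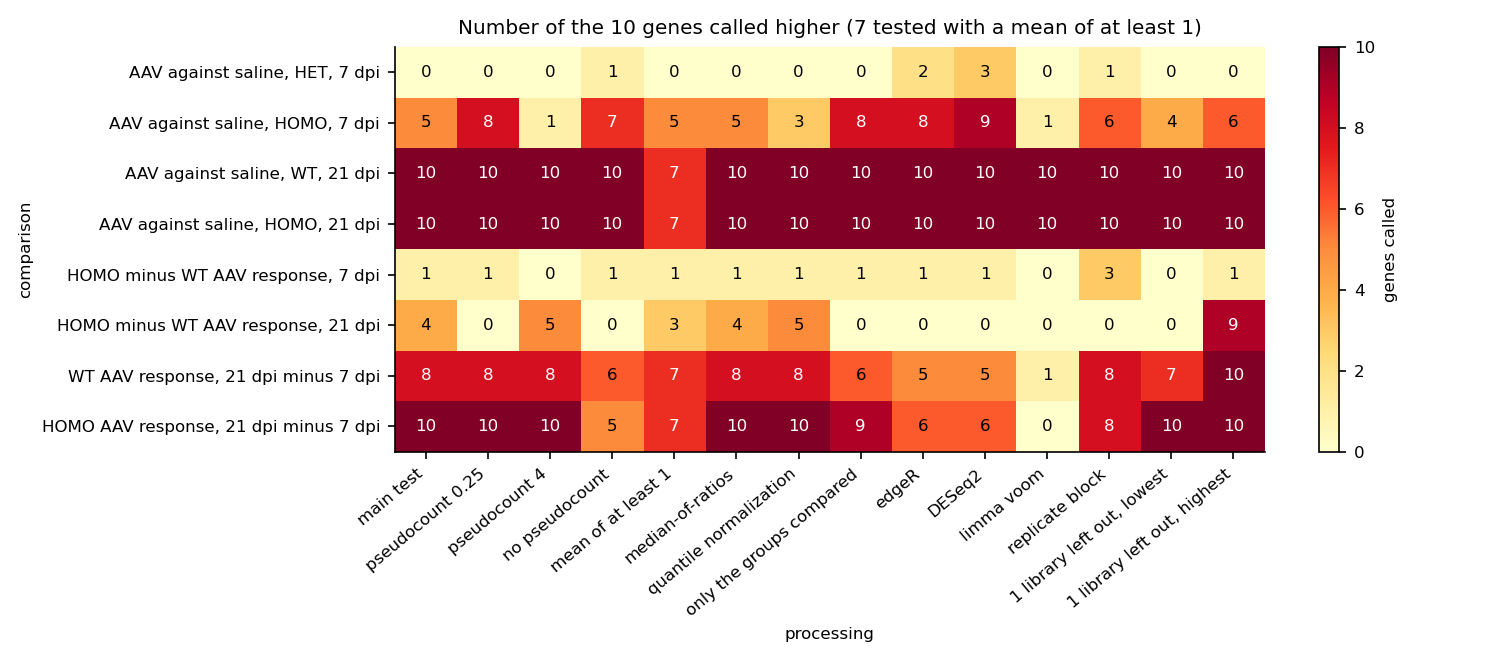
Number of the 10 genes called higher in 8 comparisons (rows) under the main test, 11 alternatives and the lowest and highest count when 1 library is left out (columns); with a mean of at least 1 only 7 genes are tested. The AAV against saline counts of 21 dpi stay at 10, or 7 of 7 with that filter, while the genotype difference at 21 dpi runs from 0 to 9. The 7 genes pass the filter through the AAV libraries of 21 dpi, so 7 of 7 is no added support.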

How the data were processed

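RNA sequencing of 56 tibialis anterior samples was read from 1 deposited table of 14871 rows, 14870 mouse genes and the viral transgene. Per the submitters' processing notes the tools were FastQC, Bowtie, RSEM and limma, with GRCm38 (mm10), with no versions or strand setting given. The values the authors deposited are a normalised signal, (reads + 0.5) per 1e+06 of an effective library size, and whole reads were recovered within 0.02 reads for 99.999% of values. Groups came from the labels, and 0 columns had no sample.

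log2(value + 1) was fitted over all 14 groups with limma 3.58.1 (trend; R 4.3.3) without a filter on low values, adjusted by Benjamini-Hochberg over all genes per comparison, in 17 comparisons, after tests on simulated data. Alternatives were edgeR 4.0.16, DESeq2 1.42.0 and voom on recovered reads, other pseudocounts, filters, scalings, group sets, a replicate block and leaving out 1 library; a fit with no pseudocount was an alternative chosen after seeing the data. Ratios, folds and exact tests used Python 3.11.15 with scipy 1.17.1. The members and lists were chosen with earlier results of these data known. All 10 members were named, the 10 genes most like them by correlation over group means, and up to 3 genes with the smallest p from each list. Replicate numbers were taken to pair saline and AAV samples where every pair of deviations from the group means correlated above 0.1, which held for HET mKO at 7 dpi (0.13 to 0.16) and HOMO mKO at 21 dpi (0.14 to 0.22). Pairing across genotypes or days was not checked, though the block joined equal numbers there too. Intervals on counts are exact and cover counting error only.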

Additional observations from a re-analysis of the deposited data

Results flagged for a closer look

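The response of a gene to AAV differed between groups in 23 cases, each by limma's test of the difference itself (adjusted p under 0.05), on the log2(value + 1) scale. Between genotypes the response was higher in HOMO mKO than in WT for Cd4 at 7 dpi (1.12). At 21 dpi it was higher for Cd3g (1.22), Cd8a (1.70), Cd8b1 (1.42) and Nkg7 (1.28), none of which was called by edgeR, DESeq2 or voom.

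Between days the WT response was larger at 21 than at 7 dpi for Cd3e (1.85), Cd3g (2.17), Lck (2.62), Cd2 (1.98), Cd4 (2.15), Cd8a (1.99), Cd8b1 (1.43) and Nkg7 (2.16). The HOMO mKO response was larger at 21 dpi for Cd3e (2.17), Cd3g (2.84), Lck (2.77), Cd2 (2.17), Cd4 (1.80), Cd8a (3.07), Cd8b1 (2.60), Gzma (1.35), Gzmb (1.71) and Nkg7 (2.71). Fewer of these day differences were called by other tools: 5 in WT and 6 in HOMO mKO by edgeR and by DESeq2, and 1 and 0 by voom. No library stood apart from its group by Dixon's criterion in the 31 sets of 1 gene in 1 group with a median of at least 10 reads.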

How the results depend on the processing

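Depth limits every result before 21 dpi, where most values were under 10 reads. Of 1637 recomputed log2 changes of the 10 genes, 1465 kept their direction and side of the threshold, 125 lost the call, 38 gained it and 9 changed sign. No member was called lower under any setting run.

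Of the 10 genes in HET mKO at 7 dpi, 2 were called by edgeR, 3 by DESeq2, 1 with the replicate block and 1 with no pseudocount, against 0. In HOMO mKO at 7 dpi 8 were called with a pseudocount of 0.25, in a fit of only these groups and by edgeR, 9 by DESeq2, 3 after quantile normalisation, and 1 with a pseudocount of 4 and by voom, against 5 (4 to 6 without 1 library). For the genotype difference at 7 dpi the count was 0 with a pseudocount of 4 and by voom and 3 with the replicate block, against 1 (0 to 1 without 1 library). For that at 21 dpi it was 0 with a pseudocount of 0.25, no pseudocount, only these groups, edgeR, DESeq2, voom and the replicate block, against 4 (0 to 9 without 1 library). For 21 against 7 dpi it was 5 by edgeR and DESeq2 and 1 by voom in WT, against 8 (7 to 10 without 1 library), and in HOMO mKO 6 by edgeR and DESeq2, 0 by voom and 5 with no pseudocount, against 10. The cause was not tested.

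The sign changed for the genotype difference at 7 dpi in Cd8b1 by edgeR (-0.08), in Gzma by edgeR (-0.33), DESeq2 (-0.49), voom (-0.1) and with no pseudocount (-0.24), and in Gzmb after quantile normalisation (-0.01). It changed at 21 dpi in Cd3e by voom (-0.46) and with no pseudocount (-0.5), and in the HOMO mKO difference between days in Cd8a by edgeR (-0.32). None of these 9 values passed its test. Without 1 library the log2 ratio differences ran from 0.91 to 1.62 for Cd8a to Cd4, -0.34 to -0.04 for Cd8b1 to Cd8a, 0.2 to 0.58 for Nkg7 to Cd3e and -0.02 to 0.5 for Cd3e to Ptprc.

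Where the replicate numbers did not pair the samples, the block is 1 more setting: correlations ran from -0.22 to 0.28. For differences between genotypes or days the block also joined equal numbers across those genotypes or days. Pairing was not checked there, so the block is no test of pairing for these differences. For 21 against 7 dpi in HOMO mKO the block called 8 of 10 genes, losing Gzma and Gzmb. For the genotype difference the block called 0 genes at 21 dpi, against 4, and 3 at 7 dpi (Lck, Cd4 and Nkg7), against 1. In HET mKO at 7 dpi it called 1 (Gzma), against 0. Over all genes, the count called higher for the genotype difference at 21 dpi was 295, against 22 with only these groups, 188 by edgeR, 157 by voom, 193 with no pseudocount and 2 with the block. Quantile normalisation moved the median of all genes in HOMO mKO at 21 dpi from 0.03 to -0.11.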
